A study of Mus musculus with 17 samples.

Results

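The genes described here are 10 transcripts that mark T cells and natural killer (NK) cells: *Cd3e*, *Cd3d*, *Cd3g*, *Cd4*, *Cd8a*, *Cd8b1*, *Nkg7*, *Gzmb*, *Gzma* and *Prf1*. They were chosen by name, and all 10 were found among the 56748 genes of the count table. RNA-seq was measured in hearts of mice aged 12 to 16 months, with 8 control (Ctrl) and 9 hMut libraries and 1 library per heart. The hMut mice carried the inducible *Polg* allele on both chromosomes together with a Ckmm-cre transgene (*Polg* iMut/iMut; +/Ckmm-cre), so that the proofreading-deficient mtDNA polymerase with the D257A change was expressed where the muscle creatine kinase promoter is active, in cardiac and skeletal muscle. The genotype of the Ctrl mice is not given in the sources used here, and no treatment was given to either group. The sex of each mouse is not in the labels.

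T cells recognise peptides held by MHC molecules through a receptor that cannot signal on its own. The CD3 chains epsilon, delta and gamma carry that signal into the cell. CD4 binds MHC class II and marks helper and regulatory T cells, and CD8, built of an alpha and a beta chain, binds MHC class I and marks cytotoxic T cells. Cytotoxic T cells and NK cells kill through granules: perforin (*Prf1*) opens the way into the target, the granzymes A and B (*Gzma*, *Gzmb*) are the proteases that enter it, and *Nkg7* encodes a membrane protein of the granules. Few such cells reside in a healthy heart muscle. Some of these markers are shared, since dendritic cells can carry CD4 or the CD8 alpha chain, and NK cells lack the CD3 complex at their surface.

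Total counts lay between 34425783 and 46486964 per Ctrl library and between 32915159 and 40175122 per hMut library. Genes encoded by mtDNA took 23.5% to 30.9% of the counts in Ctrl and 15.9% to 23.02% in hMut hearts. Levels below are in CPM, which is the count divided by the TMM-scaled library size. Summed over 7 cardiomyocyte genes, the level was between 28368 and 46025 CPM in the 17 hearts. It was lowest in hMut replicates 9 and 6 (28368 and 30520 CPM), and Ctrl replicate 3 was the lowest Ctrl heart (37178 CPM). Of 4 genes of atrial muscle, *Sln* and *Myl7* were at no more than 0.272 and 0.516 CPM in any heart, and *Myl4* was at 1.15 to 2.33 CPM in Ctrl. *Nppa*, which ventricles under strain also express, reached 678 CPM in hMut replicate 6 and 420 CPM in replicate 9, against at most 164 CPM in Ctrl. One library stood far apart. hMut replicate 6 was the highest of the 17 hearts for 4078 of 22928 tested genes (17.8%), and hMut replicate 9 followed with 2150 genes (9.38%). Fold changes of the members are given with and without hMut replicate 6.

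All 10 markers were scarce. Outside hMut replicate 6, no heart had more than 111 counts for any of them (*Cd4* in hMut replicate 9). The CD3 complex genes lie within a short stretch of chromosome 9 of GRCm39: *Cd3g* from 44880870 to 44891729, *Cd3d* from 44893084 to 44898637 and *Cd3e* from 44910038 to 44920925. *Cd8b1* (71299772 to 71314478) and *Cd8a* (71350411 to 71356157) are neighbours on chromosome 6, where *Cd4* lies further along (124841655 to 124865184). The granule genes are spread over the genome, with *Nkg7* on chromosome 7 (43086497 to 43087673), *Prf1* on chromosome 10 (61133612 to 61140459), *Gzma* on chromosome 13 (113230359 to 113237515) and *Gzmb* on chromosome 14 (56496295 to 56499717). Few reads could be shared with other genes. For 8 members no 100-base stretch of a transcript occurred in a transcript of another gene, and the shared part was 0.919% for *Cd3e* (with *Gm48719*, which overlaps it on the other strand and had at most 1 count) and 0.601% for *Cd8b1* (with *Smg6*). Whether the counting used strand is not stated.

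The comparison of hMut with Ctrl hearts asked whether T cell and NK cell transcripts were higher where cardiomyocytes accumulate mtDNA mutations. No member passed the threshold. Of the 10 members, 0 were called at an adjusted p under 0.05 by edgeR's quasi-likelihood test or by limma-voom, where edgeR called 2.67% of all 22928 genes tested (613 genes, of which 497 or 2.17% were higher and 116 or 0.506% lower in hMut). At an unadjusted p under 0.05, edgeR had 7 of the 10 members against 20.3% of all genes. DESeq2 had 7 when outlying counts were kept and 1 when they were replaced, and limma-voom had 1. Throughout, limma-voom was run with quality weights, which can give a divergent library less weight. DESeq2 gave an adjusted p for 9 members in the first case and for *Cd3g* and *Cd4* in the second, and called none of these. Of all genes, it called 6.68% in the first case and 6.59% in the second, and limma-voom called 6.49%. All 10 log2 fold changes were above 0, with a median of 1.63 against -0.0012 over all genes, and the size of this median rested on 1 heart. Without hMut replicate 6 the median over the members was 0.18, 0 members had an unadjusted p under 0.05 and 2 of the 10 fold changes were below 0. In bulk tissue, more cells of a type cannot be told apart from more RNA per cell.

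**Figure D1:**
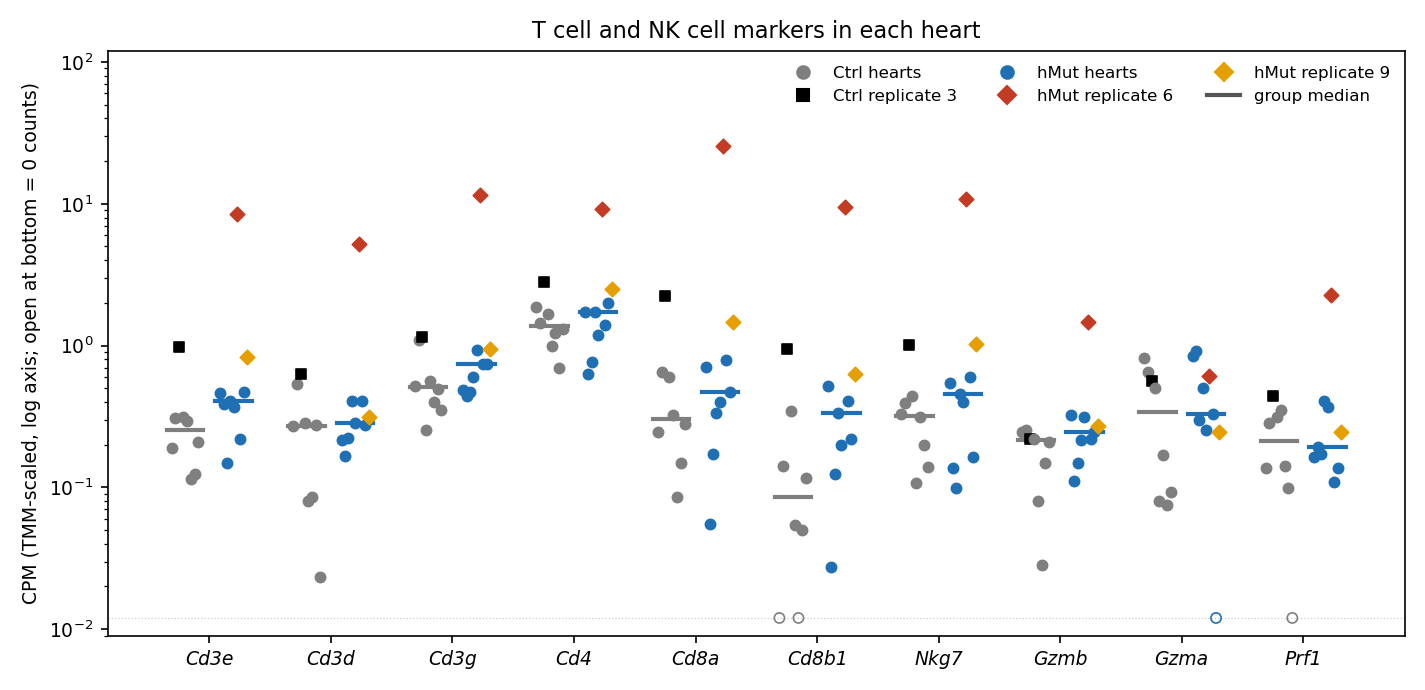
CPM of the 10 markers in each of 8 Ctrl and 9 hMut hearts on a log axis, with a line at each group median and open symbols at the bottom for hearts with 0 counts. hMut replicate 6 (red) was the highest heart for every marker but *Gzma*, while the other hMut hearts lay mostly among the Ctrl hearts, with Ctrl replicate 3 (black) at their upper edge for the CD3 and coreceptor genes.

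The CD3 chains had few counts in most hearts and many in one. *Cd3e*, the epsilon chain, ranged from 0.114 to 0.971 CPM in Ctrl (median 0.253) and from 0.148 to 8.51 CPM in hMut (median 0.406). The single value above every Ctrl heart was that of hMut replicate 6, with 363 counts, and the other hMut hearts ended at 0.829 CPM. Its log2 fold change was 2.07 (95% interval 0.44 to 3.70, adjusted p = 0.151, edgeR's quasi-likelihood test) and fell to 0.40 (interval -0.46 to 1.26) without that heart.

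*Cd3g*, the gamma chain, ranged from 0.252 to 1.16 CPM in Ctrl (median 0.507) and from 0.441 to 11.4 CPM in hMut (median 0.737). *Cd3d*, the delta chain, ranged from 0.0233 to 0.626 CPM in Ctrl (median 0.273) and from 0.165 to 5.23 CPM in hMut (median 0.284). For both genes the groups overlapped in every heart but hMut replicate 6, which held 70.2% and 71.5% of all counts of the 9 hMut libraries. The log2 fold changes of 1.63 (95% interval 0.23 to 3.04) and 1.64 (interval 0.06 to 3.21; adjusted p = 0.182 and 0.228, edgeR's quasi-likelihood test) became 0.15 and 0.09 without it.

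Against the Ctrl median, the CD8 genes had the largest folds of the 10 members in hMut replicate 6, 85.0 for *Cd8a* and 112 for *Cd8b1*. *Cd8a*, the alpha chain, ranged from 0.0853 to 2.22 CPM in Ctrl (median 0.302) and from 0.0551 to 25.6 CPM in hMut (median 0.467). hMut replicate 6 had 1094 counts of it, or 11.5 times the CPM of the highest Ctrl heart (95% counting interval 9.07 to 14.9). *Cd8b1*, the beta chain, ranged from 0 to 0.939 CPM in Ctrl (median 0.0853) and from 0.0276 to 9.54 CPM in hMut (median 0.335), and 5 of the 17 hearts had 3 counts or fewer. It was 10.2 times the highest Ctrl heart in hMut replicate 6 (counting interval 7.005 to 15.2). The log2 fold changes were 2.58 for *Cd8a* (interval 0.40 to 4.76) and 2.74 for *Cd8b1* (interval 0.57 to 4.91; adjusted p = 0.175 and 0.153, edgeR's quasi-likelihood test). Without hMut replicate 6 they were -0.02 (interval -1.26 to 1.22) and 0.62 (interval -0.85 to 2.09). Both intervals spanned 0 and were wide enough to hold a change in either direction.

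*Cd4* had the smallest fold change of the 6 T cell genes. It ranged from 0.695 to 2.82 CPM in Ctrl (median 1.37) and from 0.634 to 9.24 CPM in hMut (median 1.72). hMut replicate 6 was again the highest heart, at 3.28 times the highest Ctrl heart (counting interval 2.60 to 4.17), and 1 hMut heart lay below every Ctrl heart. The log2 fold change was 0.65 (interval -0.27 to 1.58, adjusted p = 0.413, edgeR's quasi-likelihood test) and -0.0029 (interval -0.60 to 0.59) without hMut replicate 6.

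The granule genes differed among themselves. *Nkg7* ranged from 0.108 to 1.002 CPM in Ctrl (median 0.320) and from 0.0990 to 10.8 CPM in hMut (median 0.454), with hMut replicates 6 and 9 (1.03 CPM) above every Ctrl heart and 1 hMut heart below. *Prf1*, perforin, ranged from 0 to 0.438 CPM in Ctrl (median 0.212) and from 0.109 to 2.27 CPM in hMut (median 0.193), where hMut replicate 6 alone exceeded Ctrl. *Gzmb*, granzyme B, ranged from 0.0284 to 0.254 CPM in Ctrl (median 0.215) and from 0.1102 to 1.48 CPM in hMut (median 0.247). Granzyme B was above all controls in 4 of 9 hMut hearts, 3 of them by little (at most 0.326 CPM).

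*Gzma*, granzyme A, was the exception. It ranged from 0.0745 to 0.818 CPM in Ctrl (median 0.337) and from 0 to 0.909 CPM in hMut (median 0.327). hMut replicate 6 had 26 counts, or 0.610 CPM, within the Ctrl range, and the highest values were in hMut replicates 2 and 1. The log2 fold change was 0.27 (interval -0.91 to 1.46, adjusted p = 0.824, edgeR's quasi-likelihood test), against 2.13 for *Nkg7* (interval 0.36 to 3.91, adjusted p = 0.170). It was 1.07 for *Gzmb* (interval 0.04 to 2.10, adjusted p = 0.229) and 1.06 for *Prf1* (interval -0.30 to 2.42, adjusted p = 0.363) by the same test. Without hMut replicate 6 they were 0.21 for *Gzma*, 0.26 for *Nkg7*, 0.39 for *Gzmb* and 0.05 for *Prf1*.

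**Figure D2:**
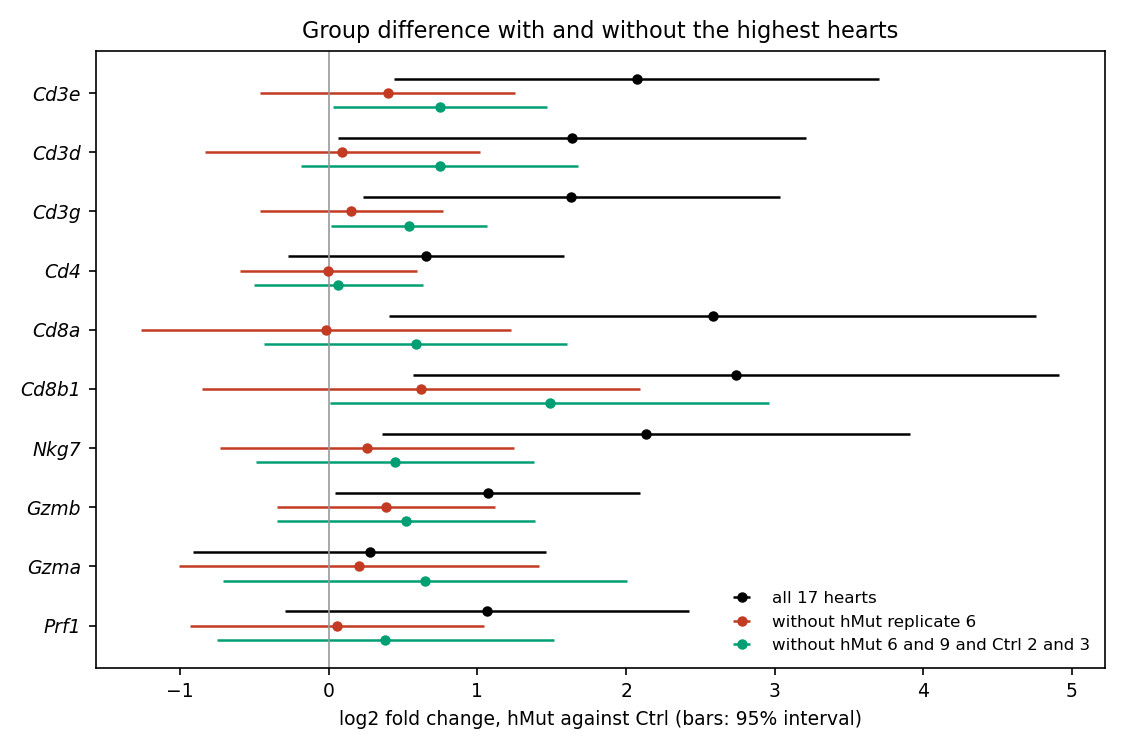
Log2 fold change of each marker, hMut against Ctrl, with its 95% interval from edgeR, for all 17 hearts (black), without hMut replicate 6 (red) and without hMut replicates 6 and 9 and Ctrl replicates 2 and 3 (green). Leaving out hMut replicate 6 brought *Cd8a* from 2.58 to -0.02 and *Cd4* from 0.65 to -0.0029, and left *Gzma* near its first value.

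In hMut replicate 6, 9 of the 10 members were above every Ctrl heart, where 26.7% of all tested genes were. In hMut replicate 9, 2 of 10 were (*Nkg7* and *Gzmb*; 23.7% of all genes), and in the other hMut hearts between 0 and 2. The groups did not overlap for 0 members and for 0.467% of all genes. Ctrl replicate 3 was the highest Ctrl heart for 8 members and the second highest of all 17 hearts for 7 of them. Measured against the other 7 Ctrl hearts, a comparison added after the data were seen, 6 of the 10 members were above every control in hMut replicate 9 (26.0% of all genes) and 9 in hMut replicate 6 (28.5%). The count for hMut replicate 9 thus depended on 1 Ctrl heart.

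With the pair of highest hearts of each group left out (hMut replicates 6 and 9, Ctrl replicates 2 and 3), 7 hMut and 6 Ctrl hearts remained. All 10 fold changes were then above 0 with a median of 0.56, and *Cd3e* (0.75), *Cd3g* (0.54) and *Cd8b1* (1.49) had unadjusted p-values of 0.0424, 0.0443 and 0.0484. None passed adjustment by edgeR (adjusted p = 0.306, 0.312 and 0.324), and 15.2% of all genes had an unadjusted p under 0.05 in that fit. Leaving out hearts with high marker levels can itself move these fold changes and p-values, so they describe the remaining hearts only. The cut was also lower in Ctrl than in hMut. By summed CPM of the members, Ctrl replicate 2, which was left out, lay below hMut replicate 1, which was kept. Such a cut can itself raise the fold changes. With hMut replicates 6 and 9 alone left out, the median over the members was 0.068, and 7 of the 10 fold changes were above 0.

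Levels of different genes were compared only per kilobase of the gene length in the count table. In the Ctrl hearts the median level per kilobase was highest for *Nkg7* (0.350 CPM), *Cd4* (0.341) and *Gzma* (0.335), and lowest for *Prf1* (0.0822), *Cd3e* (0.0620) and *Cd8b1* (0.0575). The first 3 did not differ beyond the spread between hearts. In hMut replicate 6 the order was *Nkg7* (11.8 CPM per kilobase), *Cd8a* (7.05) and *Cd8b1* (6.43), followed by *Cd3g* (3.50), *Cd3d* (2.88), *Cd4* (2.29) and *Cd3e* (2.09), with *Gzmb* (1.03), *Prf1* (0.880) and *Gzma* (0.606) last.

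The balance of the coreceptors differed in that heart. Per unit of length, *Cd8a* was 3.08 times *Cd4* in hMut replicate 6 (95% exact binomial interval 2.74 to 3.46, counting error only). In the 8 Ctrl hearts the ratio ranged from 0.0773 to 0.875 (median 0.299), with Ctrl replicate 3 highest, and in the other 8 hMut hearts from 0.0964 to 0.659. For the beta and alpha chains of CD8, *Cd8b1* was 0.912 times *Cd8a* in hMut replicate 6 (interval 0.812 to 1.02) and 1.04 times in Ctrl replicate 3 (interval 0.653 to 1.61). Over the 8 Ctrl hearts this ratio ranged from 0 to 1.42, and in the other 8 hMut hearts from 1.04 to 2.45, the highest in hMut replicate 4 on 14 counts of each gene (interval 1.084 to 5.55). *Gzmb* was 1.70 times *Gzma* in hMut replicate 6 (interval 1.06 to 2.79) against 0.117 to 1.58 times in the Ctrl hearts (median 0.290), so it was just above the Ctrl range. In hMut replicate 8 there were 9 counts of *Gzmb* and 0 of *Gzma*.

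**Figure D3:**
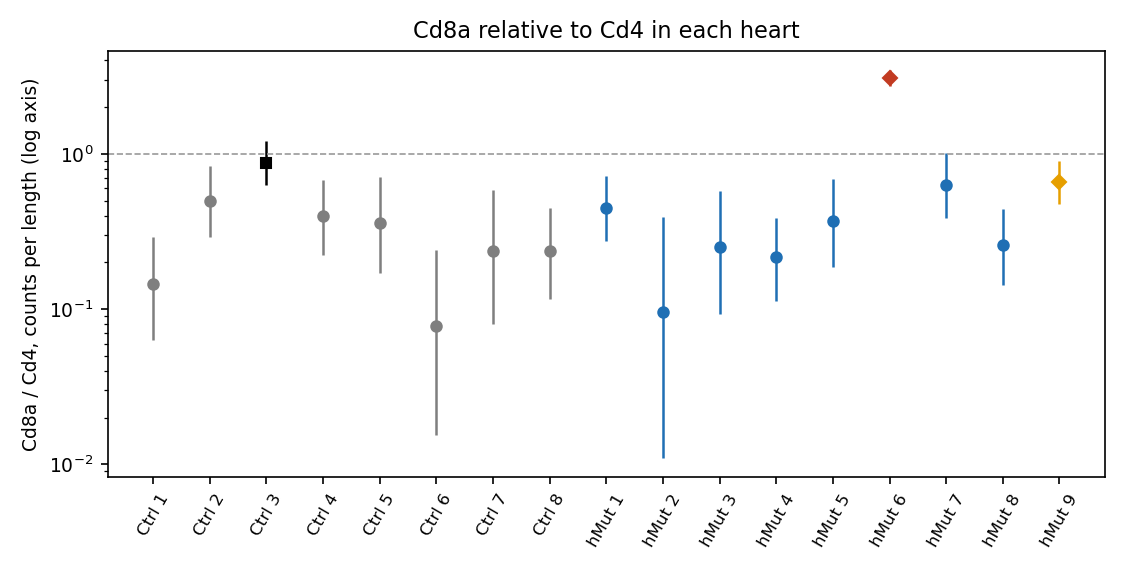
Ratio of *Cd8a* to *Cd4*, in counts per length, in each heart on a log axis, with 95% exact binomial intervals for counting error and a dashed line at 1. hMut replicate 6, at 3.08, was the single heart above 1.

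Several T cell genes exceeded the controls in hMut replicate 6 by more than leukocyte transcripts in general did. *Ptprc*, which encodes the pan-leukocyte protein CD45, was at 81.3 CPM there against a Ctrl median of 13.9, which is 5.85-fold. Relative to *Ptprc*, per kilobase, *Cd8b1* was 18.9 times its Ctrl median in this heart, *Cd8a* 10.9 times, *Nkg7* 6.49 times and *Cd3e* 5.74 times. *Cd4* (1.10 times) and *Gzmb* (1.32 times) stayed near it, and *Gzma* was at 0.374 times. In all, 6 of the 10 members exceeded every Ctrl heart on this scale: the 3 CD3 chains, both CD8 chains and *Nkg7*. Against the highest Ctrl heart the ratios were lower, at 3.44 for *Cd8b1*, 3.91 for *Cd8a*, 3.65 for *Nkg7* and 2.97 for *Cd3e*. The median Ctrl library had 3.5 counts of *Cd8b1*.

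Other genes of the T cell receptor pathway stood out in the same heart. Of 17 such genes, all tested, 0 passed the threshold of edgeR in either direction (5 at an unadjusted p under 0.05). DESeq2 with outlying counts kept called 6.68% of all genes and 1 of these 17. Their median log2 fold change was 0.97, and -0.18 without hMut replicate 6, and 15 were highest in hMut replicate 6, which was the highest heart for 17.8% of all genes. *Cd5*, a receptor that tempers T cell signalling, was at 3.94 CPM there against at most 0.313 in Ctrl (log2 fold change 2.41, adjusted p = 0.118; 0.96 without that heart). *Sit1*, a signalling adaptor of lymphocytes, was at 0.586 CPM against at most 0.108. *Cd28*, which encodes a costimulatory receptor, had a value below 0 (log2 fold change -0.30, adjusted p = 0.179) and was at 7.71 CPM in hMut replicate 6, within the Ctrl range of 5.86 to 8.87. Of 12 transcription factors and homing receptors of T cells, 0 were called by edgeR (0 at an unadjusted p under 0.05, 0 by DESeq2 or limma-voom) and 8 were highest in hMut replicate 6. Among them *Eomes*, a factor of cytotoxic cells, was at 1.45 CPM against at most 0.251 in Ctrl. *Cd27* reached 2.41 CPM and *Ccr7*, a homing receptor, 3.24 CPM, against at most 0.783 and 0.908.

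Of 16 further genes of NK cells and cytotoxic effectors, 0 were called by edgeR (6 at an unadjusted p under 0.05). DESeq2 called 6.59% of all genes with outlying counts replaced and 6.68% with them kept, and 1 of these 16. Their median log2 fold change of 1.43 became -0.07 without hMut replicate 6, and 13 were highest in that heart. *Gzmk*, granzyme K, was at 2.204 CPM in this heart and 0.426 in hMut replicate 9, against at most 0.0568 in Ctrl (log2 fold change 3.78, adjusted p = 0.0951; 1.93 without hMut replicate 6). *Klrk1*, which encodes the activating receptor NKG2D of NK cells and CD8 T cells, was at 7.64 CPM against at most 0.504. *Gzmm*, granzyme M, had a log2 fold change of -0.37 (adjusted p = 0.1098) and its lowest values in hMut replicates 9 and 6 (3.07 and 3.09 CPM, Ctrl 4.88 to 6.78). In hMut replicate 6, 13 of the 16 genes were above every Ctrl heart and 1 (*Gzmm*) below. The NK receptor genes *Klrd1*, *Klrc1* and *Klre1* were among those above, at 3.87, 2.77 and 1.05 CPM against at most 0.426, 0.224 and 0.344 in Ctrl. The remaining pair lay within the Ctrl range: *Ncr1*, which encodes NKp46, at 0.399 CPM (Ctrl 0.0497 to 0.501), and *Klrb1c*, which encodes NK1.1, at 0.328 CPM (Ctrl 0 to 0.382).

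Markers of some other cell types were high in the same heart. All 8 macrophage genes were highest in hMut replicate 6, where they summed to 1202 CPM, against 618 in hMut replicate 9 and 229 to 339 in Ctrl. *Fcgr1*, *C1qa* and *C1qb* were at 20.2, 158 and 154 CPM there, against at most 3.76, 41.6 and 38.4 in Ctrl. Of the dendritic cell genes, 4 of 7 were highest in this heart, among them *Xcr1* (8.96 CPM, at most 0.908 in Ctrl), *Flt3* (4.24 against 0.814) and *Itgax* (28.7 against 3.78). *Zbtb46* and *Siglech* were highest in Ctrl replicate 3. In hMut replicate 6 they were at 20.2 and 0.211 CPM, within the Ctrl ranges of 16.1 to 26.4 and 0.174 to 0.720. The leukocyte genes *Laptm5* and *Coro1a* were at 107 and 61.5 CPM, against at most 28.9 and 20.5. The median log2 fold change was 0.66 for the macrophage, 0.34 for the dendritic cell and 0.58 for the leukocyte genes, and 0.27, 0.04 and 0.06 without hMut replicate 6. None of the 18 genes of these 3 lists passed the threshold of edgeR, DESeq2 or limma-voom (6 at an unadjusted p under 0.05 by edgeR, all of macrophages), and their part in the values of *Cd4* and *Cd8a* was not tested.

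B cell genes followed another heart. None of 10 was called by edgeR, DESeq2 or limma-voom (1 at an unadjusted p under 0.05 by edgeR, median log2 fold change -0.96). Of the 10, 9 were highest in Ctrl replicate 3, which was the highest heart for 7.68% of all genes. They summed to 83.1 CPM in that heart, 32.8 in Ctrl replicate 2 and 6.03 to 18.7 in the other Ctrl hearts, against 10.1 to 23.7 in hMut. *Ms4a1* and *Cr2*, both surface proteins of B cells, were at 11.9 and 9.83 CPM in Ctrl replicate 3 and at 0.774 and 0.399 in hMut replicate 6. Ctrl replicate 3 thus had both T and B cell transcripts above the other controls, while hMut replicate 6, the highest hMut heart for the B cell sum at 23.7 CPM, lay below Ctrl replicates 2 and 3.

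**Figure D4:**
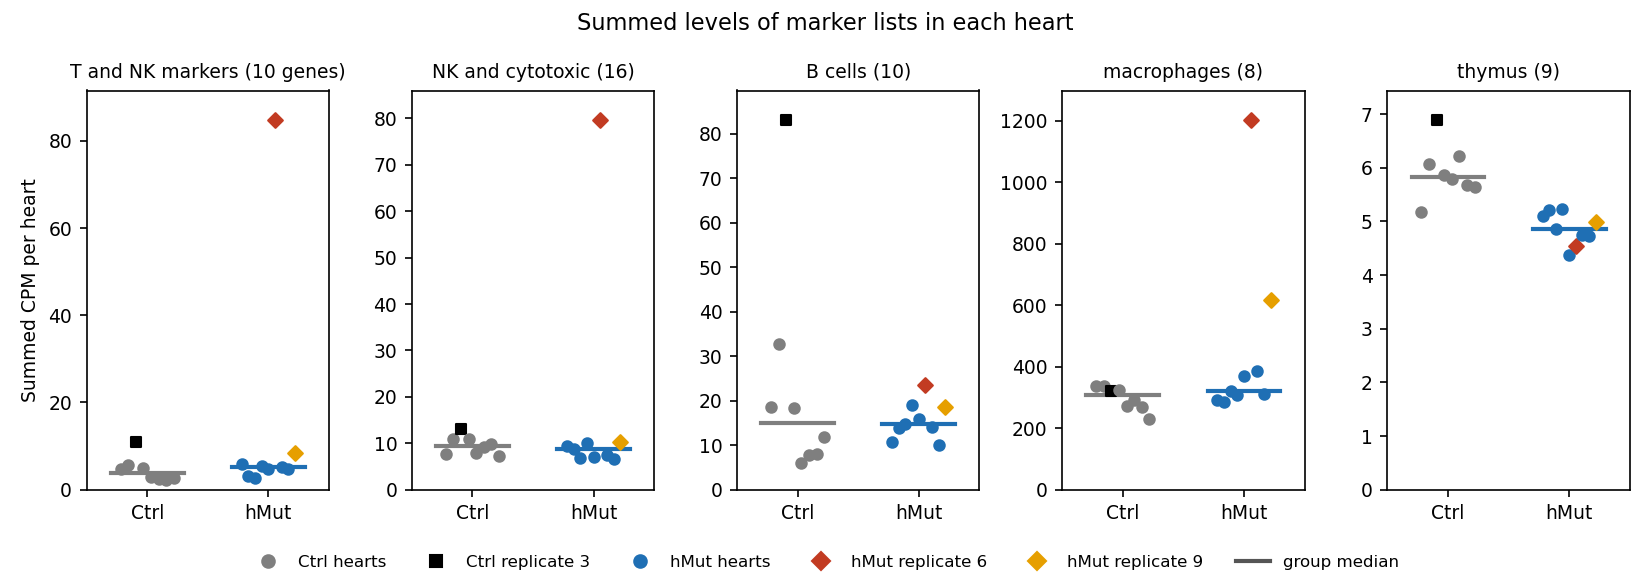
Summed CPM of 5 marker lists in each of 8 Ctrl and 9 hMut hearts, each panel with its own axis from 0 and a line at each group median. hMut replicate 6 (red) was far above the rest for T and NK markers (84.7 CPM), further NK and cytotoxic genes (79.6 CPM) and macrophages (1202 CPM), whereas Ctrl replicate 3 (black) was highest for B cells (83.1 CPM).

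The thymus lies next to the heart and is rich in T cells. *Rag2* and *Ptcra*, which developing T cells need to build and signal through their first receptor, had 0 counts in all 17 hearts. Of 9 thymus genes, 3 had enough counts to be tested and 6 were at 0 in hMut replicate 6. *Rag1*, *Dntt* and *Foxn1* were among these 6, with means of 0.765, 0.824 and 0.118 counts per library over all 17 hearts. At such counts, a 0 does not set this heart apart. *Prss16* and *Ccl25* were at 0.234 and 1.71 CPM in it, against at most 0.171 and 2.07 in Ctrl. The thymus sum was dominated by *Cd1d1*, a lipid-presenting molecule of many cell types, which was lower in hMut (log2 fold change -0.43, adjusted p = 0.0220, edgeR's quasi-likelihood test). Of 4 lymph node stroma genes tested, 0 were called by edgeR (3 at an unadjusted p under 0.05), 2 by DESeq2 and 1 by limma-voom. The shares of all genes were 2.67% by edgeR, 6.59% or 6.68% by DESeq2 and 6.49% by limma-voom. *Cxcl13*, a chemokine that attracts B cells, was at 22.9 CPM in hMut replicate 6 and at most 2.69 in Ctrl (log2 fold change 2.67, adjusted p = 0.0669; 1.68 without that heart), and *Ccl19* was at 1.10 CPM against at most 0.0939. *Ccl21a*, a chemokine for CCR7-bearing cells, was at 7.502 CPM there, below the Ctrl range of 10.99 to 27.003 (log2 fold change -0.79, adjusted p = 0.0574, edgeR's quasi-likelihood test). This was not particular to that heart. Another hMut heart was lower, at 5.07 CPM, the hMut median was 10.6 CPM, and the fold change was -0.73 without hMut replicate 6. All 5 blood genes of hMut replicate 6 lay within the Ctrl range, with a sum of 488 CPM (Ctrl 251 to 1378). The 6 mast cell genes did not go one way in it: *Kit*, a receptor also used by other cells, was above every Ctrl heart (10.4 CPM, Ctrl at most 8.05), and *Mcpt4*, *Tpsb2* and *Cma1*, proteases of mast cell granules, were below every Ctrl heart (0.469, 0.281 and 0.211 CPM).

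Outside hMut replicate 6 the order of the hearts was most alike between the CD8 chains and least alike for *Gzma*. Spearman's rho over the remaining 16 hearts was 0.914 between *Cd8a* and *Cd8b1*, 0.797 between *Cd8a* and *Nkg7* and 0.750 between *Cd3d* and *Cd3g*, while that of *Gzma* with the other members lay between -0.006 and 0.326. The 5 genes outside the list with the most similar order of the 17 hearts, out of 16359 genes, were *Tmsb10*, *Vav1*, *Mki67*, *Plek* and *Stard3nl*, with a median rho over the members from 0.751 to 0.762. *Vav1*, a signalling protein of blood cells, was at 17.9 CPM in hMut replicate 6 and at most 4.95 in Ctrl, and *Mki67*, a proliferation gene, was at 20.4 CPM against at most 12.7. These values share libraries and, for the members, low counts, and describe these hearts only.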

How the data were processed

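Polyadenylated RNA of 17 hearts was sequenced by the authors. Per the submitters' processing notes, fastp filtered the reads, HISAT2 2.2.1 placed them on GRCm39 and featureCounts 2.0.6 made the gene counts. These counts were deposited without normalization. Strand use in the counting is not given in the sources used here. Samples were grouped by their titles. Members and gene lists were chosen with earlier results of these data known.

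Genes with a mean of at least 1 count per library over all 17 libraries, whatever their group, were tested with edgeR 4.0.16 (R 4.3.3; quasi-likelihood test, TMM scaling, condition as the only term, Benjamini-Hochberg adjustment over all 22928 genes, threshold 0.05). All 10 members passed this filter, and 7 pass edgeR's filterByExpr. Intervals use the moderated degrees of freedom. On simulated counts for these 22928 genes, with changes put into genes of at least 10 counts on average, 81 of 100 genes changed by 1 and 98 of 100 changed by 2 on the log2 scale were called, with 8 unchanged genes. The changed genes were drawn from all such genes, and no single divergent heart was simulated. These shares therefore do not tell how often a change in the scarce members would be called. Alternatives were DESeq2 1.42.0, limma-voom with quality weights (limma 3.58.1), other scalings, filters, covariates and libraries left out. Ratios of counts have exact binomial intervals, which like the floor of 3 counts cover counting error only. The p-values measure the spread between hearts.

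Named genes are the members, up to 3 genes per list with the smallest p in the main comparison, and the 5 genes most alike in the order of the hearts. *Ncr1*, *Klrb1c*, *Klrc1*, *Klrd1*, *Klre1*, *Zbtb46*, *Siglech*, *Mcpt4*, *Tpsb2*, *Rag1*, *Rag2*, *Ptcra*, *Dntt*, *Foxn1*, *Sln*, *Gm48719* and *Smg6* fall outside this rule and were named after their values were seen. Coordinates are those of the count table, and GENCODE vM39 was used for overlaps and shared 100-base stretches.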

Additional observations from a re-analysis of the deposited data

Results flagged for a closer look

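Within a group, 13 of 20 sets of values (10 members in 2 groups) had a sample separated from the rest by a large part of the whole range (Dixon's criterion at 95%), where chance alone gives about 5% for normally distributed values. Whether CPM of such low counts are so distributed was not tested, and the share by chance may be larger. The members share these libraries, so the sets are not independent. In 9 of them the sample was hMut replicate 6, with 8.51 CPM for *Cd3e*, 5.23 for *Cd3d*, 11.4 for *Cd3g*, 9.24 for *Cd4*, 25.6 for *Cd8a*, 9.54 for *Cd8b1*, 10.8 for *Nkg7*, 1.48 for *Gzmb* and 2.27 for *Prf1*. In the other 4 it was Ctrl replicate 3, with 0.971 CPM for *Cd3e*, 2.22 for *Cd8a*, 0.939 for *Cd8b1* and 1.002 for *Nkg7*. *Gzma* was set apart in neither group.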

How the results depend on the processing

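No member with an adjusted p was called under any alternative run. DESeq2 gave none for 8 members with outlying counts replaced and for 1 with them kept, and filterByExpr left 7 members in the fit. The fold change fell below 0 for 3 members, each time with a 95% interval that spanned 0. Without hMut replicate 6 the log2 fold change was -0.0029 for *Cd4* and -0.018 for *Cd8a*. Without hMut replicates 6 and 9 it was -0.15 for *Cd4*, -0.43 for *Cd8a* and -0.075 for *Nkg7*. With each library left out in turn, the values reached 0.85 for *Cd4* and 3.34 for *Cd8a*, both without Ctrl replicate 3. DESeq2 with outlying counts replaced gave a median over the members of 0.31, against 1.62 with them kept. limma-voom gave 0.51. The number of genes that differed between the groups was 613, and 1510 (DESeq2, outlying counts replaced), 1532 (kept), 1489 (limma-voom), 376 without hMut replicates 6 and 9, 336 without Ctrl replicates 2 and 3 and 330 without all 4. With each library left out in turn it ranged from 348 (without Ctrl replicate 7) to 1421 (without hMut replicate 2). Members called stayed at 0 to 0 in these fits, and the lowest adjusted p was 0.0648 (*Cd3e*, DESeq2 with outlying counts kept). The other settings, filterByExpr, no filter, RLE and upper-quartile scaling, robust dispersion, protein-coding genes alone and sex as a covariate (read from *Xist* and Y-linked counts), left the number of genes within 1.5 times. By DESeq2, 4 of 7 cardiomyocyte genes were called, against 0 by edgeR (5 at an unadjusted p under 0.05) and 5 by limma-voom. The shares of all genes were 6.59% or 6.68% by DESeq2, 2.67% by edgeR and 6.49% by limma-voom. Replicate numbers are those of different mice. Deviations of same-numbered hearts correlated between -0.19 and 0.21, over 0.1 in 1 of 8 pairs. The labels give no pairing, and these correlations cannot exclude one. With the replicate number as a block, 189 genes and 0 members were called. The members above every Ctrl heart in hMut replicate 9 went from 2 to 6 without Ctrl replicate 3. Counts were low: the median per Ctrl library was between 3.5 (*Cd8b1*) and 52 (*Cd4*).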
